A study of Mus musculus with 48 samples.

Results

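Rpl5+/- Ba/F3 clones were compared with wild-type (WT) Ba/F3 clones at 3 levels: RNA, ribosome footprints, and the footprint change beyond the RNA change. The libraries were taken by their labelled genotype, 12 of the 48 in the series: 3 RNA and 3 footprint libraries from Rpl5+/- clones 80, 76 and 68, and 3 of each from WT clones 3, 2 and 1. All 55487 genes in the count table entered the comparison. Ba/F3 is a mouse pro-B cell line that depends on interleukin 3 (IL-3). The Rpl5+/- clones carry a heterozygous loss of Rpl5 made by CRISPR-Cas9, and the position of the edit is not given in the labels. Both genotypes grew in the same medium with 10% fetal calf serum and 1 ng/ml IL-3. Both received 0.1 mg/ml cycloheximide, which stalls elongating ribosomes, for 1 min before harvest. Each lysate was split into poly(A)-selected, directional RNA-seq and RNase I footprints of 28 to 30 nt. Each clone is 1 line, so differences among the clones of a genotype are part of the spread that the p-values measure. In the main fits that spread is shared over the clones of all 8 genotypes. Anything besides the edit that the Rpl5+/- clones share and the WT clones lack is part of the difference between genotypes. Whether the WT clones went through the editing procedure is not given in the labels. No separate cultures of a clone are described.

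Rpl5 (uL18) is a protein of the large ribosomal subunit. Together with Rpl11 (uL5) and 5S ribosomal RNA it forms the 5S ribonucleoprotein, which is built into the maturing large subunit. When ribosome assembly is disturbed, the free particle can bind Mdm2, the ubiquitin ligase that degrades p53, and so raise p53. Heterozygous loss of RPL5 or RPL11 causes Diamond-Blackfan anaemia, and RPL5 is deleted or mutated in several cancers, T-cell leukaemia and multiple myeloma among them. The mRNAs of ribosomal proteins and of several translation factors begin with a run of pyrimidines at the 5′ end, the terminal oligopyrimidine (TOP) motif, through which their translation responds to growth signals. Many small nucleolar RNAs (snoRNAs), the guides of ribosomal RNA modification, are spliced from the introns of TOP-bearing host genes.

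RNA libraries held 14354095 to 22101976 estimated counts in the Rpl5+/- clones and 25317713 to 27470910 in the WT clones. Footprint libraries held 36144672 to 68866154 and 46806204 to 71443928. The median SD of log2 values between the 3 clones of a genotype was 0.07 for Rpl5+/- and 0.064 for WT in RNA, against 0.197 and 0.156 in footprints. Of 22 pro-B cell markers, 17 lay under 1 CPM (counts per 1000000 counts) in the RNA of all 6 clones and 12 were at 0, Ebf1, Il7r and Kit among them. Cd79a and Cd79b of the B-cell receptor, Ikzf1, Ptprc and Tcf3 were the markers that reached 1 CPM. RNA of the neutrophil and monocyte list was uneven among clones. Its summed level was 278, 571 and 245 CPM in Rpl5+/- clones 80, 76 and 68, and 75.2, 236 and 128 CPM in WT clones 3, 2 and 1, while Cebpa and Ly6c2 were at 0 in all 6. The part of these markers in the results below was not tested.

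Rpl5 itself was the gene with the lowest p-value in RNA. Its RNA stood at 1544, 1534 and 1588 CPM in Rpl5+/- clones 80, 76 and 68 and at 2327, 2337 and 2282 CPM in WT clones 3, 2 and 1. The means were 1555 ± 28.8 and 2315 ± 29.3 CPM (SD, n = 3), so the Rpl5+/- clones held 67.2% of the WT level. The log2 change was -0.57 (SE 0.05, adjusted p = 2.49e-06, edgeR quasi-likelihood test with Benjamini-Hochberg adjustment), and the genotypes did not overlap. Rpl5 footprints were 295, 318 and 267 CPM against 489, 529 and 557 CPM, 55.9% of WT. That log2 change was -0.84 (SE 0.12, edgeR adjusted p = 0.00785), again without overlap. It no longer passed when Rpl5+/- clone 68 (-0.78, adjusted p = 0.145), WT clone 2 (-0.84, adjusted p = 0.0605) or WT clone 1 (-0.80, adjusted p = 0.0906) was left out, nor in a fit of the 2 genotypes alone (-0.85, adjusted p = 0.0765). Rpl5 footprints per RNA differed by a log2 value of -0.28 (unadjusted p = 0.045, edgeR adjusted p = 1). The counts cover the gene as annotated, so transcripts of an edited allele that are still made would be counted too.

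Gm15500, annotated as a pseudogene, moved in the same direction as Rpl5 and may share its reads. Gm15500 RNA was 101, 103 and 104 CPM against 167, 172 and 144 CPM (log2 change -0.65, edgeR adjusted p = 0.0265). Its footprint counts were 1327, 1036 and 1035 CPM in the Rpl5+/- clones and 1709, 2214 and 2512 CPM in WT (log2 change -0.92, edgeR adjusted p = 0.155). More footprint counts were thus assigned to the pseudogene than to Rpl5, and how reads of near-identical copies were divided is not given in the sources used here. Summing Rpl5 and Gm15500 gave 1658 CPM in Rpl5+/- and 2476 CPM in WT RNA. The footprint sums were 1622, 1355 and 1302 CPM against 2199, 2743 and 3070 CPM, which is 53.4% of the WT mean. With the copies summed, footprints of the edited gene were lower in every Rpl5+/- clone than in any WT clone.

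In the list of 18 genes of the 5S ribonucleoprotein and its Mdm2 branch, Rpl11 rose in RNA, Rpl5 fell, and the median was 0.02. Of all genes tested, 0.624% rose and 0.414% fell. In a fit of the 2 genotypes alone, 4 of the 18 passed higher and 1 lower, where 7.87% and 7.94% of all genes did. Rpl11 RNA went from 1686, 1670 and 1665 CPM in the WT clones to 1978, 1867 and 2062 CPM in the Rpl5+/- clones (log2 change 0.23, SE 0.05, edgeR adjusted p = 0.0355). The Rpl11 call was lost with any 1 of the 6 clones left out (edgeR adjusted p up to 0.215) and without the filter on low counts (0.144), while it passed in the fit of the 2 genotypes with or without any clone. Rpl11 footprints overlapped between the genotypes at 1163 ± 201 against 1074 ± 76.2 CPM (SD, n = 3). Mdm2 RNA was 89.0 ± 5.80 CPM in Rpl5+/- and 96.1 ± 2.14 CPM in WT, a log2 value of -0.11 with an edgeR adjusted p of 0.721. Trp53, which encodes p53, had 112 ± 3.98 against 106 ± 0.493 CPM (edgeR adjusted p = 0.766). RNA of Cdkn1a, the p53-induced inhibitor of cyclin-dependent kinases, overlapped at 282 ± 11.9 and 300.2 ± 19.3 CPM (edgeR adjusted p = 0.845). Over the 36 p53 targets tested, none passed by edgeR or limma voom, 1 passed higher by DESeq2, and 2 higher and 5 lower had an unadjusted p under 0.05. Of all genes tested in RNA, 1897 had such a p (14.8%), 957 higher (7.47%) and 940 lower (7.34%). In a fit of the 2 genotypes alone, 3 p53 targets passed higher and 9 lower, where 7.87% and 7.94% of all genes did. The p53 targets' median log2 value was -0.11, and 27 of the 36 were negative, where 49.9% of all genes tested were positive. Of this list, Zmat3, an RNA-binding protein induced by p53, stood at 29.4, 25.1 and 25.6 CPM against 52.3, 43.8 and 49.1 CPM. Its log2 value was -0.86 with an edgeR adjusted p of 0.148 in the fit over 8 genotypes and 9.93e-05 in the fit of the 2 genotypes. Rpl26, a ribosomal protein that also sits on the p53 list for its binding of p53 mRNA, had a value of 0.30 (edgeR adjusted p = 0.0666).

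**Figure D1:**
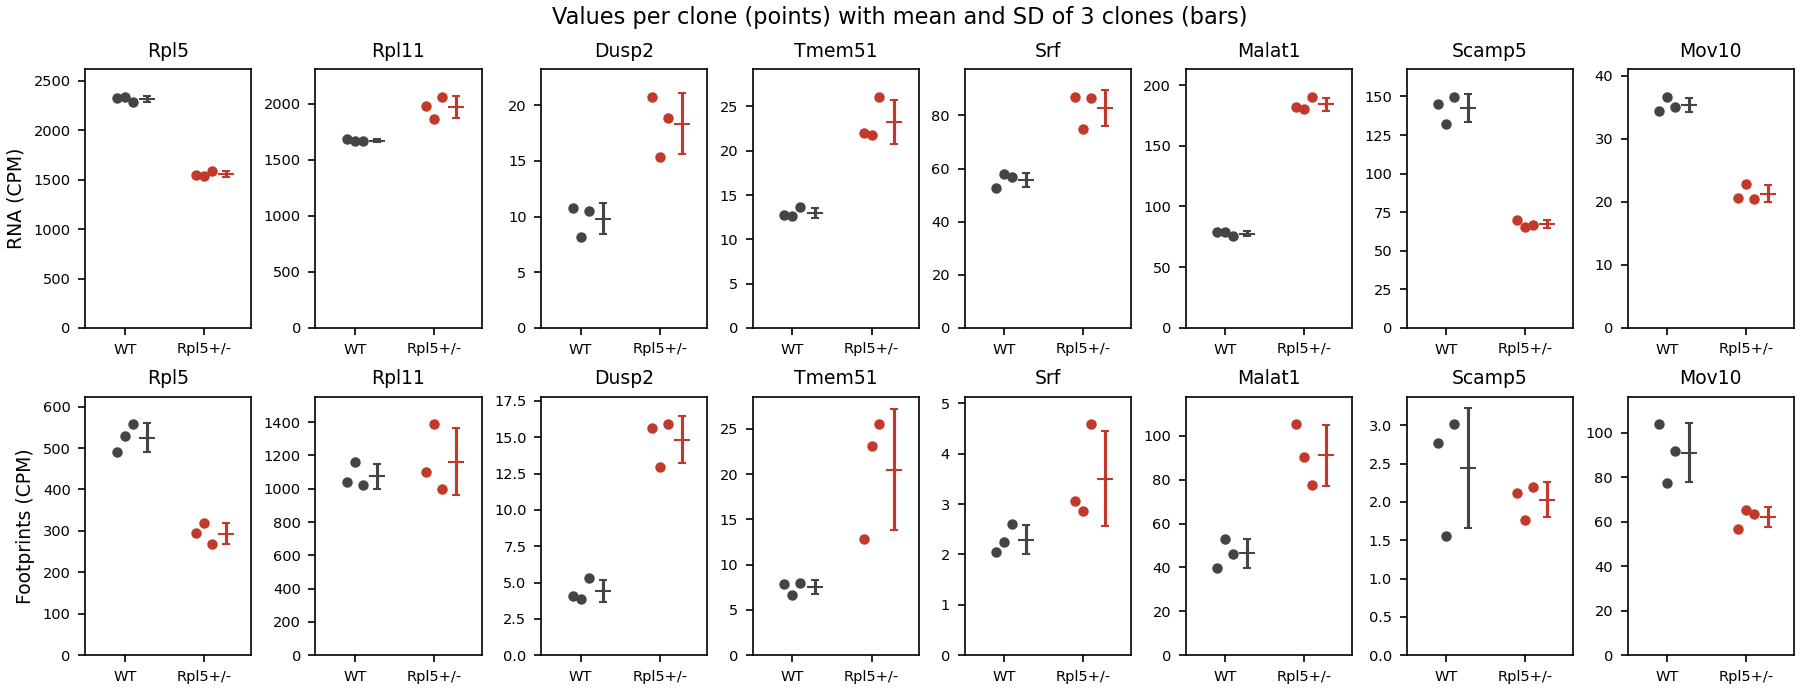
RNA (upper row) and footprint (lower row) levels of 8 genes in CPM, with 1 point per clone and the mean and SD of 3 clones beside the points. Each axis starts at 0. Rpl5 was lower in each Rpl5+/- clone than in each WT clone at both levels, Dusp2 and Tmem51 were higher at both levels, and the genotypes overlapped in Scamp5 and Rpl11 footprints.

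Across all genes, the RNA of 133 of 12814 genes tested passed an adjusted p of 0.05 (1.04%), 80 higher (0.624%) and 53 lower (0.414%) in Rpl5+/-. Changes were small: 5 of the 133 reached 2-fold. A fit over the 6 libraries of the 2 genotypes alone called 1868 of 11814 genes (15.8%), 930 higher (7.87%) and 938 lower (7.94%), and it called all 133. The fit over 8 genotypes depended on each clone, since 31 genes passed without Rpl5+/- clone 76, 2 without WT clone 3, and 1, Rpl5, without Rpl5+/- clone 80 or 68 or WT clone 2 or 1. The fit of the 2 genotypes, with a clone left out, called 1004 to 1626. Of 37 named genes besides Rpl5 whose RNA calls were followed through these fits, 21 lost the call with any of the 6 clones left out and 15 with any but Rpl5+/- clone 76. The remaining one, Mov10, also passed without WT clone 3. The Gm15500 call above, not among the 37, was lost at least with any clone but Rpl5+/- clone 76 left out. DESeq2, also fitted over 8 genotypes, called 371 of 12814 genes in RNA, 198 higher and 173 lower. Those counts are the measure for DESeq2 calls in RNA within the gene lists.

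Of the 80 genes that rose, 36 were members of the ribosomal protein list. The list was made by a pattern of gene symbols that misses Rps3a1 (eS1), a small-subunit protein gene whose RNA also rose (log2 change 0.24, edgeR adjusted p = 0.0433), and Rpl36al, a paralogue of Rpl36a, whose RNA value of 0.24 did not pass (edgeR adjusted p = 0.153). Every count and share of the list leaves both out. Besides Rpl5, 36 of the 81 listed genes tested rose and none fell, beside 0.624% of all genes tested. The list's median log2 change was 0.28, against 0.00 for all genes tested. Large-subunit genes gave 22 higher of 50 and small-subunit genes 14 higher of 32. In 78 of the 81 genes all 3 Rpl5+/- clones lay above all 3 WT clones, which held for 16.6% of all genes. The fit of the 2 genotypes called 73 of the 81 higher, beside 7.87% of all genes. With Rpl5+/- clone 76 left out 9 of them passed in the fit over 8 genotypes, and with any other clone of the comparison left out 0 passed, while the median stayed between 0.25 and 0.30.

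The start of 8 genes that this and the next paragraphs turn on is given here, since TOP mRNAs are recognised by the pyrimidines at their 5′ end. Each sequence is RefSeq's, from build GRCm38.p6, 5′ to 3′ on the gene's strand, with 25 bases before and 25 bases from the annotated start, and the longest unbroken run of C and T in capitals. Where several runs were equally long, the first is in capitals. Rpl5 lies at chr5:107900503-107900552 on the plus strand, Rpl11 at chr4:136053369-136053418 on the minus strand, Rps7 at chr12:28635929-28635978 on the minus strand, and Rps24 at chr14:24490653-24490702 on the plus strand. Rack1 lies at chr11:48800335-48800384 (plus), Eef1a1 at chr9:78481700-78481749 (minus), Snhg1 at chr19:8723462-8723511 (plus), and Dusp2, shown as a gene outside the TOP class, at chr2:127336134-127336183 (plus).
Rpl5: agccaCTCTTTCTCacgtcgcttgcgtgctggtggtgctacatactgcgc
Rpl11: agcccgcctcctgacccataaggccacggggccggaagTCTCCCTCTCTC
Rps7: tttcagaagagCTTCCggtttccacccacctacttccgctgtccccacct
Rps24: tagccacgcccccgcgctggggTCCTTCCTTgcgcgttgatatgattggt
Rack1: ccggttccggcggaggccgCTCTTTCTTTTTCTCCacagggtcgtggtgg
Eef1a1: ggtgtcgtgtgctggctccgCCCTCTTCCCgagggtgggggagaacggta
Snhg1: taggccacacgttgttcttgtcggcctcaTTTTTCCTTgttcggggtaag
Dusp2: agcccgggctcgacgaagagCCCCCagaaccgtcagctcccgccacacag
The runs are 16 bases long in Rack1, 12 in Rpl11, 10 in Eef1a1, 9 in Rpl5, Rps24 and Snhg1, and 5 in Rps7 and Dusp2. Counted from the annotated start, they begin at -20 in Rpl5, -14 in Rps7, -6 in Rack1 and -5 in Eef1a1 and Dusp2. In Rps24 the run begins at -3, in Snhg1 at 4 and in Rpl11 at 13. The marked runs of Rpl5, Rps7 and Dusp2 lie wholly before the annotated start. In Rps7 and Dusp2 the window holds other runs of the same length, also after the annotated start. That of Rpl11 reaches the end of the window and may be longer. A marked run need not be the TOP motif. The Rps7 run is short although Rps7 is a ribosomal protein gene, and an annotated start need not be the start used in these cells. A run of at least 8 was found within this window, on the gene's strand, in 19.4% of 27025 RefSeq starts. A start was available for 61 of the 82 ribosomal protein genes tested, under 80%, so their share with a run is not compared.

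Among the ribosomal proteins, the small-subunit gene Rps7 (eS7) rose from 1547, 1537 and 1577 CPM in WT to 1951, 1994 and 2044 CPM (log2 change 0.36, SE 0.06, edgeR adjusted p = 0.0162). Rpsa (uS2), whose protein sits at the head of the small subunit, rose from 4001, 4095 and 4287 to 5100, 5252 and 5549 CPM, also by 0.36. Rps24 (eS24), another Diamond-Blackfan anaemia gene, rose from 2564, 2508 and 2393 to 3221, 3131 and 3358 CPM (log2 change 0.38, edgeR adjusted p = 0.0238). In these genes the lowest Rpl5+/- clone was above the highest WT clone. Rps14 (uS11), a gene of the 5q- syndrome, rose from a mean of 2088 to 2648 CPM (0.34). The largest rise of a large-subunit gene that passed was that of Rpl36a (eL42), from 937, 976 and 906 to 1189, 1273 and 1363 CPM (log2 change 0.44, SE 0.08, edgeR adjusted p = 0.0162). Rpl23a (uL23), near the exit of the peptide tunnel, rose from 2322 to 2920 CPM (0.33), and Rpl17 (uL22), which lines the tunnel, from 1806 to 2173 CPM (0.27).

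The ribosomal protein genes moved within a narrow band. Values of those that passed ran from 0.20 to 0.44, and those of all members at 1 CPM or more in WT from -0.07 to 0.50. The lowest was Rpl22l1, the paralogue of Rpl22, at 591 ± 46.8 against 620 ± 25.2 CPM with the genotypes overlapping, and the highest was Rps27 (eS27, edgeR adjusted p = 0.145), named after its value was seen. Rpl22 itself had 1172 ± 42.6 CPM against 948 ± 17.4 CPM, a log2 value of 0.31 with an edgeR adjusted p of 0.154. Rpl5 was thus the exception in the list: its RNA fell by 0.57 on the log2 scale while 79 of the other 81 members had positive values. Rpl32l, Rpl10l and Rpl39l were too low in RNA to be tested.

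Taken as one quantity, ribosomal protein genes held 16.0% to 16.8% of RNA counts in the Rpl5+/- clones and 14.2% to 14.4% in the WT clones, with means of 16.3% ± 0.40 and 14.3% ± 0.08 (SD, n = 3). An exact permutation test of 3 clones against 3 cannot go below a two-sided p of 0.1. The shares are relative to each library's total, and in such bulk samples fewer cells of a kind and less RNA per cell cannot be told apart. In footprints the shares were 7.34% to 7.51% and 7.21% to 7.43%, which overlap. Rpl11+/- clones, which lack 1 copy of the partner gene, held 16.3% to 17.3% of RNA counts in ribosomal proteins and 7.61% to 8.56% of footprint counts. Every clone of Rps15 P131S (15.5% to 16.0%), Rpl10 R98S (15.3% to 15.9%) and Rpl22-/- (14.5% to 15.6%) also lay above all WT clones in RNA. Rps15 H137Y (14.3% to 17.4%) and Rpl22+/- (13.8% to 14.6%) overlapped with WT. All these genotypes are set against the same WT clones and so share their controls with Rpl5+/-.

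**Figure D2:**
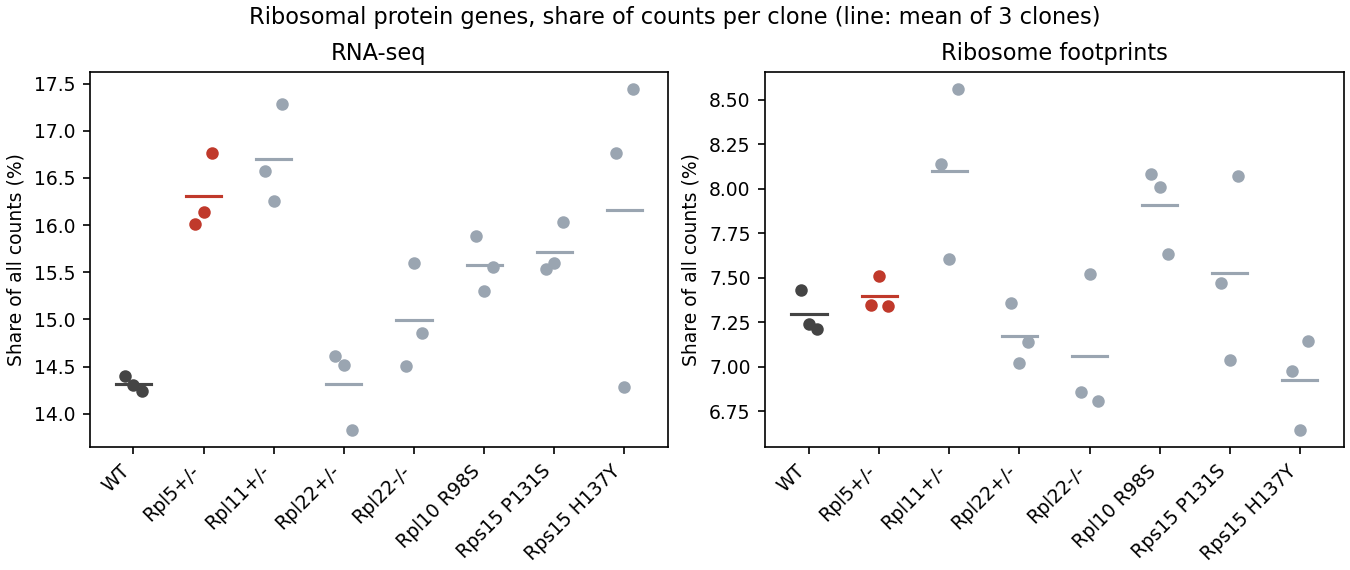
Share of all counts (%) in ribosomal protein genes per clone, in RNA (left) and footprints (right), for 8 genotypes, with points for clones and a line for the mean of 3 clones. The axes do not start at 0. The 3 Rpl5+/- clones hold 16.0% to 16.8% of RNA counts, above the 14.2% to 14.4% of WT, and overlap with WT in footprints.

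Footprints of ribosomal protein genes stood closer to WT than their RNA. The median log2 value over the 83 genes tested besides Rpl5 was 0.08, and 0 of them passed by edgeR, limma voom or DESeq2. At an unadjusted p under 0.05 there were 3 higher and 1 lower, beside 2.29% and 1.83% of all genes. In 67 of the 81 genes tested at both levels the RNA value exceeded the footprint value. Footprints per RNA, called translational efficiency here, had a median log2 value of -0.19 over 82 genes, with 69 negative, while the median of all genes was 0.02. All 3 Rpl5+/- clones lay below all 3 WT clones in 18 of the 82, where 4.22% of all genes did so. None passed by edgeR, limma voom or DESeq2, and 11 were lower at an unadjusted p under 0.05, beside 1.34% of all genes. For comparison, the median over the same list in Rpl11+/- against the same WT clones was 0.32 in RNA and 0.29 in footprints, and the Rpl5+/- medians were 0.28 and 0.08. That difference in footprints was not tested. Clone medians of log2 over the WT mean were 0.23 to 0.344 in RNA and 0.035 to 0.064 in footprints for Rpl5+/-. Rpl11+/- footprints ran from 0.076 to 0.465. In the same order, Rps15 H137Y had 0.156 to 0.367 and -0.027 to 0.104, and Rpl22-/- 0.077 to 0.216 and -0.028 to 0.135. Rps15 P131S had 0.252 to 0.355 and 0.197 to 0.507, and Rpl10 R98S 0.141 to 0.192 and 0.159 to 0.284. Rpl22+/- had -0.032 to 0.088 and 0.078 to 0.136.

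**Figure D3:**
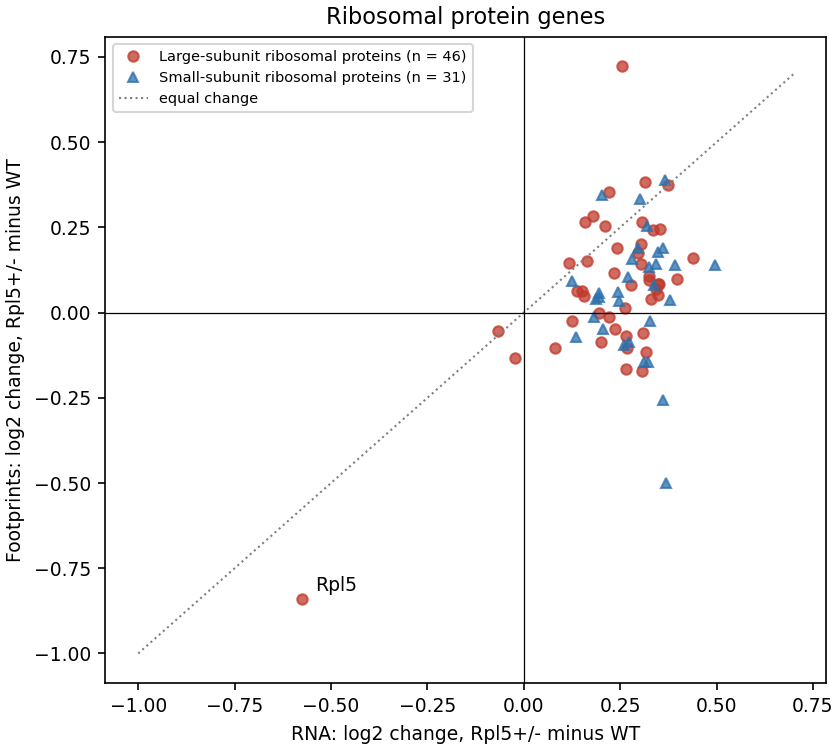
Log2 change of ribosomal protein genes in RNA (horizontal) and footprints (vertical), Rpl5+/- minus WT, 1 point per gene, for 46 large-subunit and 31 small-subunit genes with at least 20 CPM of footprints in WT. The dotted line marks equal change. Most points lie right of 0 and below the line, and Rpl5 stands alone at -0.57 and -0.84.

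Single ribosomal protein genes showed how far the levels parted. Rps12 (eS12) had footprints of 487, 509 and 487 CPM in the Rpl5+/- clones and 666, 661 and 769 CPM in WT (log2 value -0.50, unadjusted p = 0.0469, edgeR adjusted p = 1). Its RNA stood higher, at 2637 ± 72.8 against 2040 ± 26.1 CPM (log2 value 0.37, edgeR adjusted p = 0.0536). Rps12 efficiency differed by -0.88, with an edgeR adjusted p of 1 in the fit over 8 genotypes and 0.00461 in the fit of the 2 genotypes. Rpsa efficiency differed by -0.63, without overlap between the genotypes (unadjusted p = 0.00103, edgeR adjusted p = 1). Rps15a (uS8) rose in RNA by 0.31 (edgeR adjusted p = 0.0468) and had an efficiency value of -0.46 (unadjusted p = 0.00154, edgeR adjusted p = 1). Many ribosomal protein genes have near-identical pseudogenes, so their footprint counts depend on how reads were divided. Rpl10, Rpl35, Rpl21 and Rps2 had at least 500 CPM in WT RNA but under 20 CPM in WT footprints, and their efficiencies are left out of the scatter for that reason. Genes of a pseudogene biotype took 4.87% ± 0.08 of footprint counts in Rpl5+/- and 5.07% ± 0.19 in WT (SD, n = 3).

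Eef1a1 and Rack1, whose mRNAs also belong to the TOP class, rose in RNA. Eef1a1, the elongation factor that brings aminoacyl-tRNA to the ribosome, rose in RNA from 13136, 12802 and 12574 CPM to 15151, 15435 and 16025 CPM (log2 change 0.28, SE 0.06, edgeR adjusted p = 0.0265). Its footprints overlapped at 8634 ± 278 and 8877 ± 398 CPM, and its efficiency value was -0.32 (unadjusted p = 0.0141, edgeR adjusted p = 1). Rack1, a scaffold on the small subunit counted here with the ribosome quality-control list, rose from 2196 ± 47.4 to 2611 ± 49.7 CPM (log2 change 0.25, edgeR adjusted p = 0.0433), the 1 call among the 27 genes of that list, whose median was -0.05. Of all genes tested, 0.624% rose and 0.414% fell. The fit of the 2 genotypes called 2 of the 27 higher and 5 lower, where 7.87% and 7.94% of all genes passed. Eef2, the translocation factor, had RNA of 4747 ± 138 against 4147 ± 75.3 CPM (edgeR adjusted p = 0.251), footprints of 3427 ± 138 against 3787 ± 84.5 CPM, and an efficiency value of -0.35 (unadjusted p = 0.0125). Eef1a1 was the only one of 69 translation factors tested to pass in RNA, and the list's median was 0.07. In the fit of the 2 genotypes 21 of 68 rose and 2 fell, where 7.87% and 7.94% of all genes did.

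snoRNA host genes had the highest RNA median of the lists that concern the ribosome, 0.45 over 15 genes tested, with no call by edgeR, limma voom or DESeq2 in the fit over 8 genotypes. At an unadjusted p under 0.05, 3 were higher, beside 7.47% of all genes. All 3 Rpl5+/- clones lay above all 3 WT clones in 12 of the 15, beside 16.6% of all genes. The fit of the 2 genotypes called those 12, beside 7.87% of all genes called higher. Snhg1 stood at 172, 160 and 176 CPM in the Rpl5+/- clones and 110.0, 108 and 111 CPM in WT (log2 value 0.63, edgeR adjusted p = 0.364). Gas5, whose many introns carry box C/D snoRNAs, had 203, 211 and 228 CPM against 153, 154 and 144 CPM (log2 value 0.51, edgeR adjusted p = 0.16, and 9.45e-05 in the fit of the 2 genotypes). Snhg17 had 50.6 ± 3.40 against 32.1 ± 1.67 CPM (0.66). In Snhg6, Snhg8 and Snhg12 the genotypes overlapped. The list held 0.0998% to 0.106% of RNA counts in the Rpl5+/- clones and 0.0788% to 0.0803% in WT. Every clone of Rpl11+/- (0.0934% to 0.106%) and Rps15 P131S (0.0976% to 0.129%) in the same series also lay above all WT clones. So did every clone of Rpl10 R98S (0.0822% to 0.0852%) and Rpl22-/- (0.0807% to 0.0926%). Rpl22+/- clones (0.0795% to 0.0825%) overlapped with WT, and the 3 Rps15 H137Y clones ranged from 0.0418% to 0.132%.

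**Figure D4:**
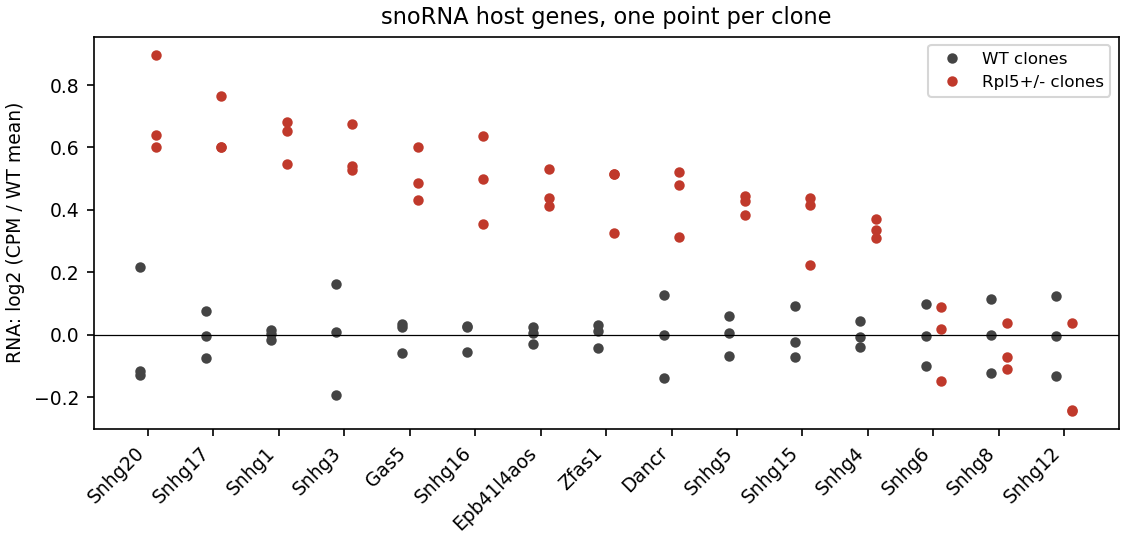
RNA of the 15 snoRNA host genes tested, as log2 of CPM over the WT mean, 1 point per clone, WT dark and Rpl5+/- red. In 12 genes every Rpl5+/- clone is above every WT clone, and in Snhg6, Snhg8 and Snhg12 they overlap.

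Assembly factors had smaller medians than the proteins they help to assemble. The 59 large-subunit assembly factors had a median RNA log2 value of 0.13, with 51 positive, and 0 calls by edgeR and limma voom against 2 by DESeq2; 7 were higher and 3 lower at an unadjusted p under 0.05, beside 7.47% and 7.34% of all genes. In the fit of the 2 genotypes 21 passed higher and 2 lower, beside 7.87% and 7.94%. These shares of all genes, at either test, are also the measure for the lists that follow in this paragraph. Npm1, the nucleolar chaperone nucleophosmin, had 3042, 3014 and 3174 CPM in Rpl5+/- against 2484, 2610 and 2299 CPM in WT (log2 value 0.32, edgeR adjusted p = 0.0778). Rrs1, which together with Rpf2 loads the 5S ribonucleoprotein onto the pre-60S particle, had 87.3, 81.1 and 90.1 against 64.1, 64.3 and 68.2 CPM (log2 value 0.40, edgeR adjusted p = 0.0994). The genotypes did not overlap in either gene. The 57 small-subunit factors had a median of 0.08 and 0 calls by edgeR and limma voom, 2 by DESeq2, and 9 higher at an unadjusted p under 0.05, and the fit of the 2 genotypes called 14 higher and 0 lower. Fcf1, needed for early 18S rRNA cleavage, had 66.5, 67.4 and 67.1 CPM against 53.5, 54.6 and 52.5 CPM, the closest to the threshold (0.32, edgeR adjusted p = 0.0561), and Nob1, the nuclease of the last 18S cleavage, had 0.30 (edgeR adjusted p = 0.0888). The 37 RNA polymerase I and III genes had a median of 0.03, with 0 calls by edgeR and limma voom, 1 by DESeq2, and 6 higher and 3 lower at an unadjusted p under 0.05, and 10 higher and 2 lower in the fit of the 2 genotypes. Polr1d, a subunit of both polymerases, had a value of 0.21 and Brf2, a polymerase III initiation factor, one of -0.39 (edgeR adjusted p = 0.0994 and 0.148).

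Outside the ribosomal protein list 44 genes rose in RNA, Rps3a1 and the ribosomal protein pseudogenes Rps3a3 and Rps18-ps6 among them. Dusp2, a nuclear phosphatase that inactivates MAP kinases, had 20.7, 15.4 and 18.9 CPM in Rpl5+/- against 10.8, 8.21 and 10.5 CPM in WT (log2 change 0.90, SE 0.19, edgeR adjusted p = 0.0265). Srf, the serum response factor that drives immediate early and actin genes, had 87.0, 75 and 86.6 CPM against 52.5, 57.8 and 56.7 CPM (edgeR adjusted p = 0.0162), 149% of the WT mean. Tmem51, a membrane protein of little-known function, had 22.0, 21.7 and 26.1 CPM against 12.8, 12.6 and 13.6 CPM (log2 change 0.84, edgeR adjusted p = 0.0162). The Rpl5+/- clones were separate from WT in these genes, a condition for naming the largest changes, with the narrowest margin in Srf. Malat1, an abundant nuclear non-coding RNA, had 182, 180 and 190 CPM against 78.6, 79.0 and 75.4 CPM, 237% of WT (SE of the log2 change 0.25, edgeR adjusted p = 0.0289). Malat1 is not translated, yet the footprint libraries also held counts of it. They were 91.0 ± 13.8 against 46.4 ± 6.60 CPM, a difference that did not pass (log2 value 0.97, edgeR adjusted p = 0.387).

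Further genes that rose were Fbxo9, a substrate receptor of a ubiquitin ligase, from 33.2 to 62.7 CPM, and Col11a2, a fibrillar collagen chain, from 11.5 to 21.7 CPM. Plek, a substrate of protein kinase C in blood cells, rose from 104 to 170 CPM, and Abca1, which exports cholesterol, from 7.80 to 13.3 CPM. Zfp296 rose from 4.11 to 7.19 CPM and the orphan nuclear receptor gene Nr6a1 from 4.41 to 7.36 CPM. The largest log2 change of a named gene was that of Igsf5, a junction protein, at 4.07, but on 0.970 to 2.21 CPM in the Rpl5+/- clones and at most 0.151 CPM in WT. Igsf5 had no footprint counts in any WT clone. Bid, which links death receptors to the mitochondrial pathway of apoptosis, rose from 90.2 to 110 CPM (log2 change 0.29, edgeR adjusted p = 0.0346) and had footprints at a log2 value of 0.43 (edgeR adjusted p = 0.923).

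Besides Rpl5, 52 genes fell in RNA. Scamp5, a carrier protein of secretory vesicles, went from 145, 132 and 150 CPM in WT to 70.1, 65.2 and 66.6 CPM (log2 change -1.08, SE 0.17, edgeR adjusted p = 0.0162). Its footprints were few and overlapped, 2.03 ± 0.228 against 2.45 ± 0.785 CPM. Mov10, an RNA helicase of silencing complexes, fell from 34.4, 36.7 and 35.0 to 20.7, 22.8 and 20.5 CPM (log2 change -0.73, SE 0.11, edgeR adjusted p = 0.0108), with footprints of 62.0 against 91.0 CPM (log2 value -0.55, edgeR adjusted p = 0.843). Skp2, the ubiquitin ligase subunit that marks the cell cycle inhibitor p27, fell from 29.7 to 19 CPM, and its footprints stood at 30.8 against 46.7 CPM without overlap (edgeR adjusted p = 0.939). Tnfaip3 (A20), an inhibitor of NF-kappaB signalling, fell from 7.47 to 4.07 CPM (log2 change -0.87, edgeR adjusted p = 0.0315). Sos1, the exchange factor that activates Ras, fell from 48.4, 42.9 and 42.4 to 29.7, 33.4 and 32.4 CPM (log2 change -0.49, SE 0.08, edgeR adjusted p = 0.0162). G2e3, a ubiquitin ligase of the G2 and M phases, fell from 59.9 to 42.0 CPM, Gas2l3, a cytoskeletal linker of dividing cells, from 35.6 to 25.1 CPM, and Terf1, which binds telomere repeats, from 41.4 to 29.7 CPM. Lrrc51 fell from 11.6 to 6.00 CPM and the endosomal protein gene Zfyve16 from 14.8 to 10.4 CPM.

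Outside the ribosomal protein list, footprints moved in the same direction as RNA in most genes that passed. Of all genes tested in footprints, 49.8% had a positive value. Of the 44 genes outside the ribosomal protein list that rose, 39 had a positive footprint value, with medians of 0.46 in RNA and 0.39 in footprints. Of the 52 that fell, 48 had a negative footprint value, with medians of -0.40 and -0.20. Both assays came from the same lysates, so the pairs are not independent cultures.

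Socs1, an inhibitor of cytokine signalling, was among the lower RNAs that did not pass, at 25.3, 35.0 and 34.1 CPM against 52.5, 51.9 and 46.9 CPM (log2 value -0.68, edgeR adjusted p = 0.243). Over the 34 genes of the IL-3 receptor and JAK-STAT5 list, 1 fell (Sos1) and none rose, with a median of -0.05. The fit of the 2 genotypes called 3 higher and 8 lower. Beside this list and those below, 0.624% of all genes rose and 0.414% fell. In the fit of the 2 genotypes 7.87% rose and 7.94% fell. Csf2rb, the beta chain shared by the IL-3, IL-5 and GM-CSF receptors, had 715 ± 19.4 CPM in Rpl5+/- against 530 ± 49.1 CPM in WT (log2 value 0.43, edgeR adjusted p = 0.37). Its footprints were 191, 248 and 234 CPM against 157, 151 and 119 CPM (log2 value 0.66, edgeR adjusted p = 0.923), and the mouse-specific IL-3 receptor chain gene Csf2rb2 had a footprint value of 0.65. These chains are near-identical, and reads can be divided between them. Of the 46 immediate early and MAP kinase feedback genes, 2 rose (Dusp2 and Srf) and Tnfaip3 fell, with a median of 0.15, and the fit of the 2 genotypes called 11 higher and 6 lower of 44. In the Bcl2 family Bid was the 1 of 17 to pass, and the median was 0.11, with 3 higher and 2 lower of 16 in the fit of the 2 genotypes. Bcl2, the anti-apoptotic founder of the family, had 318, 309 and 333 CPM against 486, 446 and 481 CPM, 68.0% of WT (log2 value -0.56, edgeR adjusted p = 0.11), with a footprint value of -0.54. The genotypes did not overlap in Bcl2 at either level.

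The ATF4, cell cycle, cholesterol, glycolysis and interferon lists had RNA medians of -0.20 to -0.07. Among 43 ATF4 and integrated stress response genes, Ddit4 (REDD1), an inhibitor of mTORC1, fell from 78.9, 64.5 and 66.9 CPM to 40.2, 44.1 and 34.7 CPM (log2 change -0.82, SE 0.18, edgeR adjusted p = 0.0355). Of these genes 34 were negative, the median was -0.13, and the same list in Rpl11+/- against the shared WT clones had -0.43. The fit of the 2 genotypes called 3 of the 43 higher and 12 lower, where 7.87% and 7.94% of all genes passed. At an unadjusted p under 0.05, 7.47% of all genes were higher and 7.34% lower. These shares are also the measure for the lists that follow in this paragraph. Cell cycle genes gave 1 lower of 42, Mcm7 of the replicative helicase, from 229 to 184 CPM (log2 change -0.31, edgeR adjusted p = 0.0433), with 36 negative and a median of -0.08, and 1 higher and 8 lower in the fit of the 2 genotypes. Cholesterol synthesis genes had 21 negative of 24 and a median of -0.13, with 0 calls by edgeR and limma voom, 1 lower by DESeq2, and 1 higher and 4 lower at an unadjusted p under 0.05. In the fit of the 2 genotypes 1 passed higher and 9 lower. Acat2, which condenses acetyl-CoA at the entry of the pathway, had 53.2 ± 3.76 against 71.7 ± 2.24 CPM (log2 value -0.43, edgeR adjusted p = 0.0511). Glycolysis genes had a median of -0.07 with 0 calls by all 3 tools and 2 lower at an unadjusted p under 0.05, Pfkm among them (-0.41), and 1 higher and 5 lower of 20 in the fit of the 2 genotypes. None was higher at that unadjusted p. The share in either direction, 2 of 21, was under the 14.8% of all genes, while the share lower was above their 7.34%. The 25 interferon response genes had a median of -0.20, 0 calls by all 3 tools and 5 lower at an unadjusted p under 0.05, led by Isg15 on 0.811 against 1.62 CPM, and the fit of the 2 genotypes called 3 of 23 lower. Their footprint median was -0.28. Replication-dependent histones had a median of 0.34 over 56 genes, on poly(A)-selected RNA that captures these mostly unpolyadenylated mRNAs poorly, with 0 calls by all 3 tools and 7 higher at an unadjusted p under 0.05. None was lower at that p. The share in either direction was under the 14.8% of all genes, while the share higher was above their 7.47%. The fit of the 2 genotypes called 0 of 36. The 18 genes of the Myc and Max network had a median of -0.01, with 0 calls by all 3 tools and 2 higher and 2 lower at an unadjusted p under 0.05, and 4 higher and 3 lower in the fit of the 2 genotypes.

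**Figure D5:**
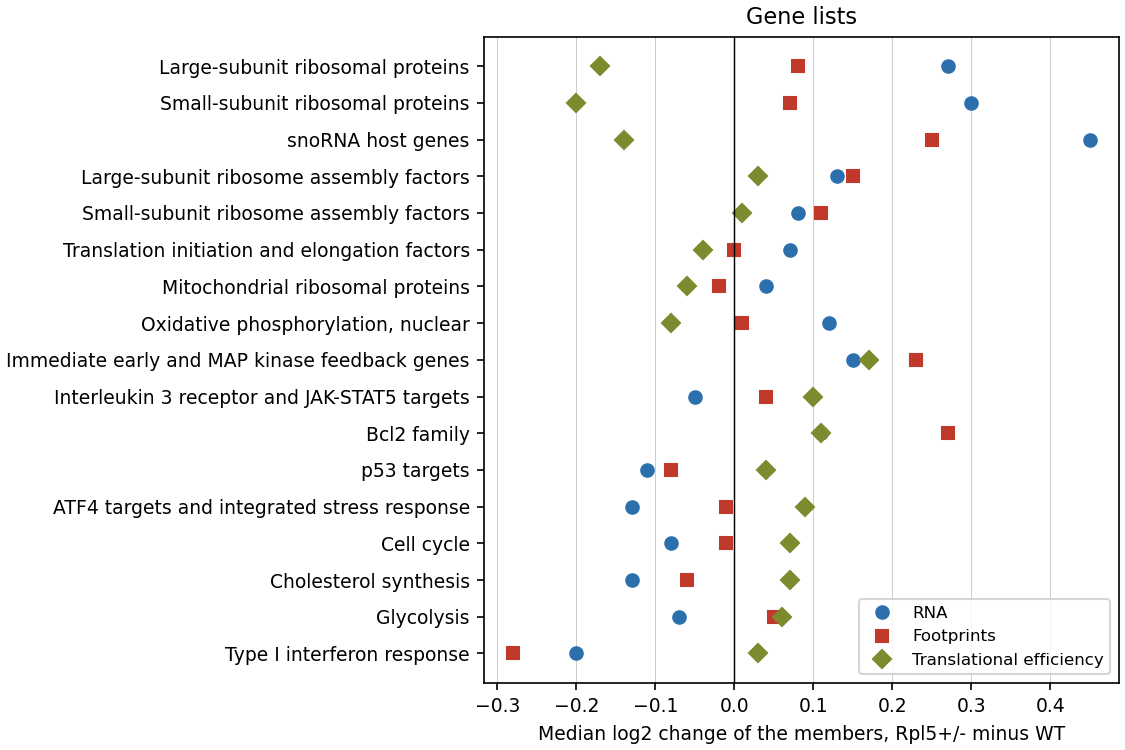
Median log2 change of the gene lists shown, Rpl5+/- minus WT, in RNA (circles), footprints (squares) and translational efficiency (diamonds). Ribosomal proteins and snoRNA hosts lie right of 0 in RNA and left of 0 in efficiency, assembly factors have RNA and footprint medians of 0.08 to 0.15, and of the lists shown the interferon list is lowest in RNA and footprints.

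Among mitochondrial genes RNA values were mostly positive and footprint medians lay near 0. Of 79 mitochondrial ribosomal proteins, Mrpl33 (77.2 to 99.8 CPM, log2 change 0.37, edgeR adjusted p = 0.0247) and Mrpl42 (76.8 to 96.1 CPM, 0.32, edgeR adjusted p = 0.0315) rose, beside 0.624% of all genes. The list's median was 0.04. The 80 nuclear genes of oxidative phosphorylation had 61 positive values and a median of 0.12, with 0 calls by edgeR and limma voom, 3 higher by DESeq2, and 25 higher and 2 lower at an unadjusted p under 0.05. Of all genes, 7.47% were higher and 7.34% lower at that p. In the fit of the 2 genotypes 29 of the 80 rose and 3 fell, where 7.87% and 7.94% of all genes did. Cox7a2l, which organises respiratory supercomplexes, had 212 ± 10.2 against 179 ± 6.54 CPM (log2 value 0.24, edgeR adjusted p = 0.0502). CYTB, the mitochondrially encoded cytochrome b, rose from 1936, 1910 and 1963 CPM to 3016, 2959 and 3198 CPM (log2 change 0.66, SE 0.15, edgeR adjusted p = 0.0383), while its footprints overlapped (187 ± 38.5 against 189 ± 36.1 CPM). Of the 13 mitochondrially encoded proteins, a group chosen after their values were seen, 12 had positive RNA values with a median of 0.39. In 10 of them all 3 Rpl5+/- clones lay above all 3 WT clones, which held for 16.6% of all genes. The footprint median of the 13 was -0.01.

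RNA values also moved with the length of the gene's span on the chromosome. Among the 90.5% of tested genes with a span in the RefSeq table, split into 5 equal groups by span, the group with the shortest spans had a median of 0.06 and that with the longest -0.05. In efficiency the shortest and longest groups had -0.06 and 0.04. The part of this in the ribosomal protein and oxidative phosphorylation values was not tested.

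In footprints 2 of 16217 genes passed (0.0123%), Dusp2 higher (0.00617%) and Rpl5 lower (0.00617%), and 667 had an unadjusted p under 0.05 (4.11%, with 2.29% higher and 1.83% lower). All 3 Rpl5+/- clones lay above all 3 WT clones in 5.65% of genes and below in 5.23%. Dusp2 footprints were 15.6, 13.0 and 15.9 CPM in Rpl5+/- and 4.07, 3.88 and 5.28 CPM in WT (log2 change 1.75, SE 0.23, edgeR adjusted p = 0.00428). Every Rpl5+/- clone had more than 2-fold the level of any WT clone, but the call was lost without WT clone 3 (1.69, adjusted p = 0.0525) or WT clone 2 (1.66, adjusted p = 0.0605) and with limma voom (adjusted p = 0.0513). Its efficiency value was 0.84 (unadjusted p = 0.00803, edgeR adjusted p = 1). Tmem51 came next, at 12.9, 23.1 and 25.5 CPM against 7.91, 6.65 and 8.01 CPM (log2 value 1.45, edgeR adjusted p = 0.0505), with clone 80 well under the other Rpl5+/- clones. Polr1a, the largest subunit of RNA polymerase I, had footprints of 98.9, 94.1 and 103 CPM against 62.2, 62.8 and 67.1 CPM (log2 value 0.62, edgeR adjusted p = 0.698), the highest of its list. Sptan1, the non-erythroid alpha spectrin, had 242, 250 and 370 CPM against 120, 100 and 133 CPM (log2 value 1.29, edgeR adjusted p = 0.239).

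Other footprint values with the lowest p that did not pass were higher for Hmgb3, a chromatin protein of progenitor cells (0.54), and Csrnp1, a nuclear protein induced early by growth signals (0.61). Lower ones were Inka1, an inhibitor of the kinase Pak4, at 0.801, 0.805 and 0.699 CPM against 3.26, 2.48 and 2.79 CPM (log2 value -1.88, edgeR adjusted p = 0.387), and Hsbp1, a regulator of heat shock factor (-0.39). Eif2ak2 (PKR), the kinase that phosphorylates eIF2alpha upon double-stranded RNA, had 51.4, 49.7 and 44.9 CPM against 64.5, 66.5 and 81.7 CPM (log2 value -0.54, edgeR adjusted p = 0.538). Irf9, part of the interferon-activated ISGF3 complex, had -0.90 (edgeR adjusted p = 0.923), Uba7, which activates Isg15, also -0.90 (edgeR adjusted p = 0.698), and the ceramide synthase gene Cers4 -0.50 (edgeR adjusted p = 0.572). Irf9 aside, these genes were picked by p only among those in which the genotypes did not overlap. Irf9 was named from its list, and its genotypes did not overlap either.

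Translational efficiency gave no call: 0 of 16568 genes passed by edgeR (0%), 450 had an unadjusted p under 0.05 (2.72%, with 1.38% higher and 1.34% lower), limma voom called 0 and DESeq2 29. All 3 Rpl5+/- clones lay above all 3 WT clones in 5.11% of genes and below in 4.22%. The genes named next were picked by p only among those without overlap. Higher values with the lowest p were those of Eps15, an endocytic adaptor (0.37), Ints5 of the Integrator complex (0.47), Trrap of histone acetyltransferase complexes (0.35), Ext2 of heparan sulfate synthesis (0.40), Prdm11 (0.66) and Smarcd1 of the SWI/SNF complex (0.42). Lower ones were Ddx50, a nucleolar RNA helicase, at -0.57 (unadjusted p = 0.000377), the ubiquitin ligase adaptor gene Klhl11 at -0.85, Rpsa and Rps15a. Zfp973 and Amd2 were at 0 in the footprints of all 3 Rpl5+/- clones, against 0.388 to 1.78 and 0.426 to 2.32 CPM in WT, and both belong to families of near-identical copies among which reads can be divided. The fit of the 2 genotypes called 5 of 14409 efficiencies (0.0347%), 2 higher (0.0139%) and 3 lower (0.0208%), Rps12 among the lower. It called 4 of 14007 footprint genes (0.0286%), 2 higher (0.0143%) and 2 lower (0.0143%), with Dusp2 among the higher and Rpl5 not among the lower.

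Against Rpl11+/- clones, which carry the other protein of the 5S particle at 1 copy, the RNA of 18 of 12814 genes differed (0.14%). No WT library enters this contrast. Rpl11 stood at 1969 CPM in Rpl5+/- and 1073 CPM in Rpl11+/-, and Rpl5 at 1555 and 2756 CPM. These were the only ribosomal protein genes to pass by edgeR, and the median of the list was -0.05 between the genotypes.

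Markers of other blood lineages were compared for the same clones. In the neutrophil and monocyte list 13 of 14 genes tested had positive RNA values and the median was 1.29, with 0 calls by edgeR, limma voom and DESeq2 and 1 higher at an unadjusted p under 0.05. Mpo, the granule enzyme myeloperoxidase, had 4.49, 7.34 and 3.12 CPM against 0.038, 1.21 and 1.34 CPM (log2 value 2.51, edgeR adjusted p = 0.285). S100a9, a calcium-binding protein of neutrophils, had 82.7, 192 and 71.9 CPM against 6.40, 60.8 and 18 CPM, so that WT clone 2 came close to Rpl5+/- clone 68. The summed footprints of the list were 536, 1187 and 469 CPM in Rpl5+/- and 81.5, 414 and 211 CPM in WT. Mast cell, erythroid, megakaryocyte and T cell lists held no call in RNA by edgeR, limma voom or DESeq2. They held 2 higher and 1 lower values at an unadjusted p under 0.05. Of all genes, 7.47% were higher and 7.34% lower at that p, the measure for the neutrophil and monocyte list too. Cpa3, a mast cell protease, had 50.7, 103 and 63.1 CPM against 46.3, 42.6 and 15.8 CPM.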

How the data were processed

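RNA-seq and ribosome profiling counts of Ba/F3 clones came as 1 table of estimated counts per gene, deposited by the authors. Per the submitters' processing notes the tools were STAR 2.6.1d, Salmon 1.4.0 and DESeq2 1.30 on build GRCm38. The annotation, the region counted for footprints and the treatment of reads that match several genes are not given in the sources used here.

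Counts were rounded and fitted in R 4.3.3 with edgeR 4.0.16 (quasi-likelihood, robust, TMM scaling, filterByExpr by genotype with 10 counts in a scaled library and 15 in total) over all 24 libraries of an assay, and translational efficiency as the interaction over 48, two-sided, with Benjamini-Hochberg adjustment at 0.05. CPM are counts per 1000000 TMM-scaled counts. Statistics were tested on simulated data. Alternatives were limma voom (limma 3.58.1), DESeq2 1.42.0, RLE scaling, no filter, the 2 genotypes alone, each clone left out, thinning, a clone block, and no pseudogenes; the 2 genotypes with a clone left out were added after seeing the data. RNA and footprint libraries of a clone came from 1 lysate, and their deviations correlated at 0.168 to 0.38 in the 6 clones over 9523 genes (different clones -0.237 to -0.052).

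Symbols came from the table (32115) or a gene name list (23112), and 260 identifiers had none. Biotypes, spans and starts came from RefSeq GRCm38.p6. Members and the 28 gene lists were chosen with earlier results of these data known. Per level, genes were named if they passed without overlap at 1 CPM or more, 12 per direction by log2 change, or the 6 lowest p where few passed, with up to 4 per list.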

Additional observations from a re-analysis of the deposited data

Results flagged for a closer look

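Rpl5+/- and Rpl11+/- clones were compared in RNA directly, since a difference between 2 genotypes that each lack 1 copy of a 5S ribonucleoprotein gene is itself testable; 18 genes passed the edgeR quasi-likelihood test at an adjusted p of 0.05. The genes of the 2 edited loci came first. Rpl11 differed by a log2 value of 0.88 (edgeR adjusted p = 1.2e-09) and Rpl5 by -0.83 (edgeR adjusted p = 1.2e-09), with the pseudogene Gm15500, which may share reads with Rpl5, at -0.66. The other genes higher in Rpl5+/- were Zfp953 at 0.78, G2e3 at 0.59, the amino acid transporter gene Slc38a2 at 0.48 (228 against 163 CPM), Cnep1r1 at 0.45, Zfp407 at 0.44, Snx13 at 0.42, the pantothenate kinase gene Pank3 at 0.40, B230219D22Rik at 0.39 and the nuclear receptor gene Nr2c2 at 0.38. Lower in Rpl5+/- were the cytokine receptor gamma chain gene Il2rg at -0.40, the integrin gene Itgb4 at -0.46, the kinase gene Sik1 at -0.57, the peptide transporter gene Tap2 at -0.61 (101 against 154 CPM), Mpp1 at -1.21 (22.0 against 51.0 CPM) and Tnfsf4 (OX40 ligand) at -2.79 (0.463 against 3.20 CPM). The number of genes rests on single clones: 455 passed without Rpl11+/- clone 414, 11 without Rpl11+/- clone 22, 8 without Rpl11+/- clone 406, and 5, 4 and 3 without Rpl5+/- clones 80, 76 and 68.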

How the results depend on the processing

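RNA calls numbered 371 with DESeq2, 49 without a filter on low counts, 1868 with the 2 genotypes alone, and 1 to 31 with a clone left out (1004 to 1626 in the 2 genotypes alone: 1145, 1626 and 1004 without Rpl5+/- clones 80, 76 and 68, and 1017, 1379 and 1542 without WT clones 3, 2 and 1). Limma voom, RLE scaling, thinning and leaving out pseudogenes gave 115 to 150. Ribosomal protein genes higher in RNA numbered 36, and 56 with DESeq2, 11 without the filter and 73 with the 2 genotypes. Rpl5 RNA stayed between -0.59 and -0.56 and passed in every fit. Footprint calls numbered 1 with limma voom, 46 with DESeq2, 4 without the filter, 4 with the 2 genotypes and 0 to 3 with a clone left out. Rpl5 footprints ranged from -0.91 to -0.78 with a clone left out, and -0.85 with the 2 genotypes missed the threshold. Efficiency calls numbered 29 with DESeq2, 5 with the 2 genotypes and 0 with any clone left out. With the clone as a replicate block efficiency had 0 calls and Rpl5 was at -0.28, so the pairing changed no call. Against Rpl11+/-, DESeq2 gave 136 calls, the 2 genotypes 5, and a left-out clone 3 to 455. Of the named genes' values under the alternatives 1387 kept their side of the threshold, 154 gained a call, 232 lost it and 2 reversed: Rpl11 footprints at -0.03 without Rpl5+/- clone 76 (range to 0.21), and Rpl11 efficiency at 0.00 without Rpl5+/- clone 68 (range from -0.30). The cause of these differences was not tested. Footprint libraries of Rpl5+/- and WT had a clone SD over 2-fold that of their RNA, which limits footprint and efficiency tests.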
